A study of Mus musculus with 25 samples.

Results

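The 8 libraries described here compare the esophagus of adult mice that carry 1 NRF2 L30F allele with that of wild-type mice, with 4 libraries in each group, out of 25 libraries in the study. They were taken by their labelled genotype from the table of the adult experiment, and no measured value was used to choose them. NRF2 L30F is a mutation found in human cancers that puts phenylalanine in place of leucine at codon 30 of NRF2. The mutant allele was knocked in at the mouse gene and is switched on by Cre recombination. The heterozygotes were NRF2L30F/+::K5CreERT2, in which Cre is driven from keratin 5, the keratin of the basal layer, and is active only after tamoxifen. All 4 groups of this experiment were aged 6 to 9 weeks and were sampled 1 week after tamoxifen at 100 µg per g of body weight. The labels call the controls wild type and do not say whether they carried the Cre transgene. L30F homozygotes (NRF2L30F/L30F::K5CreERT2) and KEAP1-deficient mice (KEAP1flox/flox::K5CreERT2), with 4 libraries each, shared the fit. Nothing in the labels ties a library to an animal of its own, and the p-values therefore measure no more than how these libraries vary, which may be technical.

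NRF2, encoded by Nfe2l2, is a transcription factor that turns on genes for glutathione synthesis, detoxification and the repair of oxidised proteins. KEAP1 binds NRF2 through a short motif near its start and directs its destruction, and codon 30 lies in that motif, called DLGex. In squamous epithelia such as the esophagus, a basal layer divides and feeds upper layers that keratinise, and NRF2 is known there both for protecting cells and for changing keratinisation.

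Recovered reads ranged from 27529932 to 32281407 in the wild-type libraries and from 12814911 to 16921637 in the heterozygotes, so the heterozygote values carry more counting error. Levels are given as normalised read counts, which are the reads of a gene after scaling for the library, in the order of libraries 1 to 4. The defining genes of the squamous epithelium were high in all 8 libraries. Krt13, a keratin of the upper layers, ranged from 420599 to 542698 normalised read counts in wild type and from 281013 to 402153 in heterozygotes, and Krt5, the basal keratin, from 31451 to 43126 and from 27773 to 48205. Library 4 of the wild type stood apart from the other 3. Among 13811 genes with a mean of at least 50 normalised read counts over the 8 libraries, 217 had a value in that library more than 2-fold outside the range of the other 3, and for 132 of these the value fell inside the range of the heterozygotes. The median SD of log2 values was 0.132 in wild type, 0.0989 in wild type without library 4 and 0.194 in heterozygotes. Other tissue moved with genotype too: the summed level of 20 striated muscle genes ranged from 525673 to 576726 normalised read counts in wild type and from 687912 to 957656 in heterozygotes, without overlap.

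Of 19857 genes tested, 1927 (9.7%) differed between heterozygotes and wild type in limma at an adjusted p under 0.05, the threshold for every call below. Fold changes and their SE are from log2(normalised read count + 1). In the heterozygotes 954 genes (4.8%) were higher and 973 (4.9%) lower. Each count of list members called against wild type below stands against these shares over all genes. The 4 and 4 values did not overlap for 2877 genes (14.5%), and 1506 of the genes called were among them. Most differences were small: 1470 of the genes called changed by less than 2-fold, 252 rose and 205 fell by at least 2-fold, and 92 rose and 33 fell by at least 4-fold. At the top of the range the rises outnumbered the falls. The number of calls rested on single wild-type libraries. It was 624 without library 1, 1153 without library 2, 968 without library 3 and 2455 without library 4, and 1709 of the 1927 genes were called in that last fit.

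**Figure D1:**
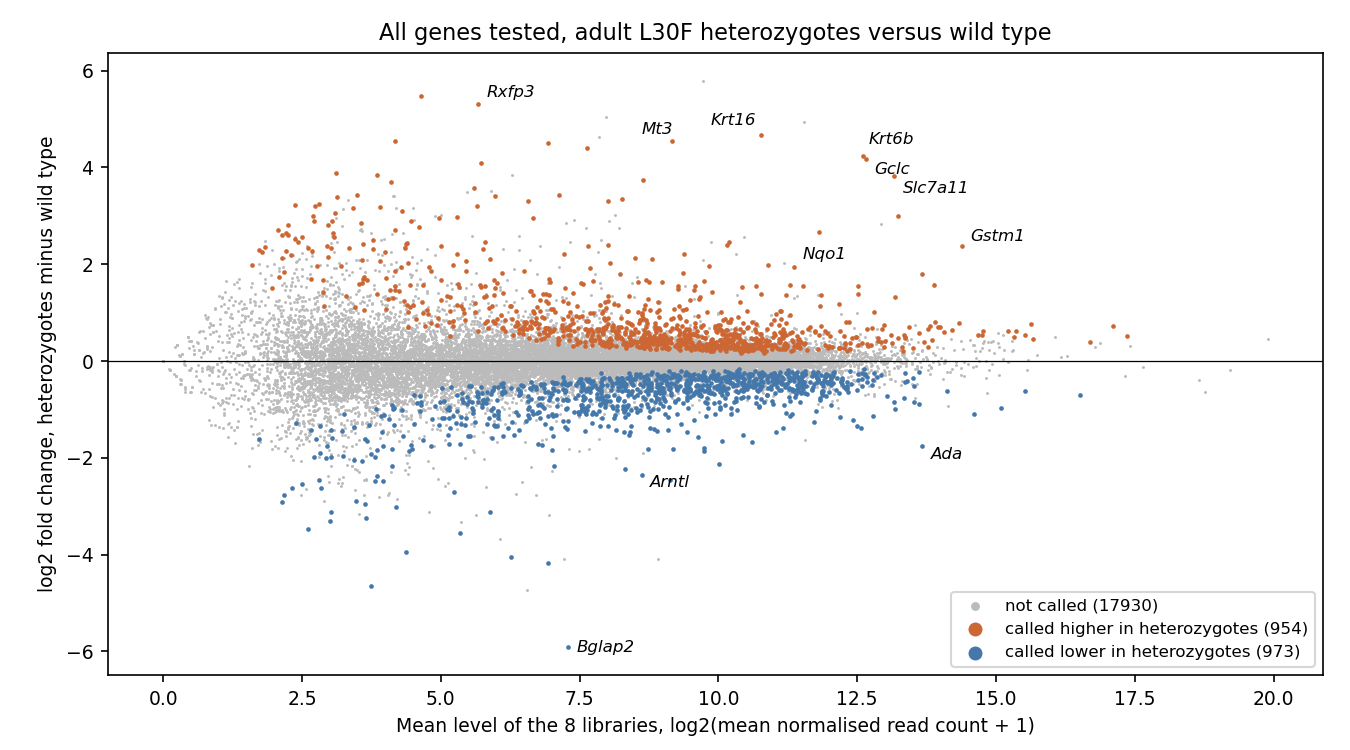
The log2 fold change of each of the 19857 genes tested (vertical axis, heterozygotes minus wild type) against its mean level over the 8 libraries (horizontal axis, log2 of the mean normalised read count + 1). Points in orange were called higher in heterozygotes (954), points in blue lower (973), and grey points were not called (17930). The named antioxidant genes and keratins lie among the largest rises at high levels.

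Nfe2l2 itself fell. It measured 6110.4, 5202, 5638 and 5695 normalised read counts in the 4 wild-type libraries and 4117, 3307, 3542 and 3293 in the 4 heterozygotes, so that every heterozygote lay below every wild type (log2 fold change -0.67 ± 0.12 SE, adjusted p = 0.0028). These counts join transcripts of both alleles and do not tell the mutant from the normal one. Keap1, its repressor, measured 1160.3, 1164, 1192 and 1077 in wild type and 1011, 1169, 1254 and 1198 in heterozygotes, which overlapped (log2 fold change 0.01 ± 0.07, adjusted p = 0.96). Among 12 genes for NRF2, its relatives and its partners, 2 were called higher and 1 lower; the higher count was 0 without wild-type library 1, 3 or 4 or heterozygote library 3, and 1 without wild-type library 2 or heterozygote library 1 or 4. The fall of Nfe2l2 held without each library in turn. With the level of striated muscle genes as a covariate its log2 fold change was -0.66 and it was not called (adjusted p = 0.12).

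Transcripts of genes for cystine import and glutathione synthesis rose. Of 12 genes, 6 were called higher and none lower, with a median log2 fold change of 0.74 against 0.01 over all genes tested. Slc7a11, the cystine transporter that brings in the limiting amino acid of glutathione, measured 1057, 1271, 1100.1 and 1412 in wild type and 19046, 15177, 15968 and 18569 in heterozygotes, a 14.2-fold rise (adjusted p = 1.5e-11). Its partner chain Slc3a2, which carries the transporter to the membrane, went from 1401, 1437, 1508 and 1366 to 2966, 2681, 2646 and 2875 (1.95-fold, adjusted p = 1.4e-06). The 4 heterozygotes were close to one another for both genes and far from any wild type.

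The enzymes downstream rose to different extents. Gclc, the catalytic subunit of the enzyme that joins cysteine to glutamate, measured 681, 635, 704 and 661 in wild type and 15558, 10511, 10863 and 12077 in heterozygotes (18.1-fold, log2 fold change 4.17 ± 0.15, adjusted p = 1.1e-10). Its regulatory subunit Gclm rose 2.62-fold, from 953, 909, 959 and 1029 to 2279.8, 2525, 2538 and 2758 (log2 fold change 1.39 ± 0.10, adjusted p = 1.9e-07). The ratio of Gclc to Gclm counts was higher in each of the 4 heterozygotes than in any wild type. Gss, which completes glutathione, and Gsr, which regenerates it from its oxidised form, rose 2.69-fold and 2.19-fold (adjusted p = 4.5e-06 and 0.00027). All 6 calls held without each of the 8 libraries in turn, and all 6 held with the level of striated muscle genes as a covariate.

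Transcripts of sulfiredoxin and of some peroxiredoxins rose with them, while most other peroxide-handling genes were not called. Srxn1, sulfiredoxin, which reactivates peroxiredoxins, measured 951, 1082, 1134 and 745 in wild type and 7752, 5047, 5997 and 6043 in heterozygotes (6.35-fold, adjusted p = 1.5e-06). Prdx1, a peroxiredoxin, went from 3287, 3145, 3273 and 3281 to 7342, 9030.3, 8301 and 9426 (2.61-fold, adjusted p = 5.8e-06). Among 13 thioredoxin and peroxiredoxin genes 3 were called higher and none lower. Txnrd1, thioredoxin reductase, missed the threshold at 1965, 2003, 2079.9 and 1559 against 3158, 2124, 2782 and 2704 (1.41-fold, adjusted p = 0.052), although the groups did not overlap; without heterozygote library 2 it passed (adjusted p = 0.028). Of 10 glutathione peroxidases, catalase and superoxide dismutases, Cat, catalase, was the single call (1.63-fold, adjusted p = 0.0045). That share of 10% was near the 9.7% called over all genes tested. With the level of striated muscle genes as a covariate Cat was not called (adjusted p = 0.19).

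**Figure D2:**
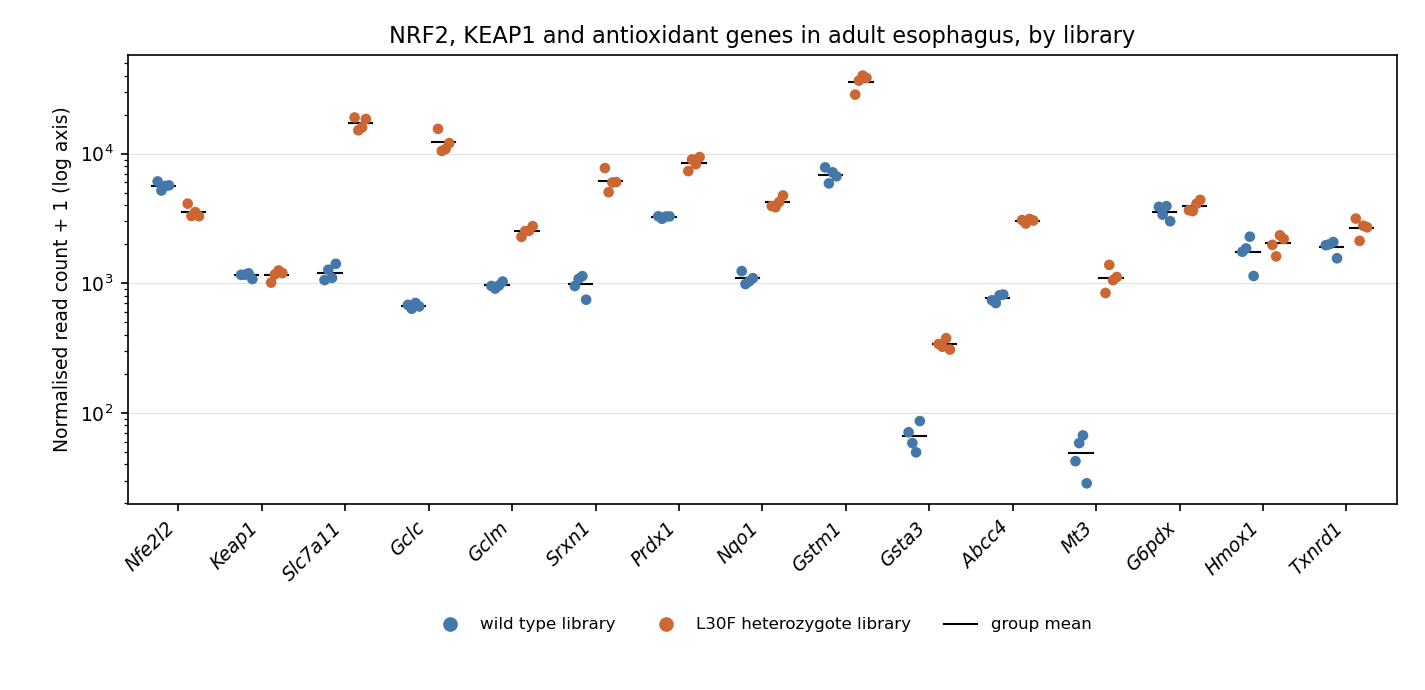
Normalised read count + 1 on a log axis for Nfe2l2, Keap1 and 13 antioxidant or detoxification genes, with 4 wild-type libraries in blue, 4 heterozygote libraries in orange and a black line at each group's mean. The orange points of Slc7a11, Gclc, Gclm, Srxn1, Prdx1, Nqo1, Gstm1, Gsta3, Abcc4 and Mt3 lie above all blue points, those of Nfe2l2 lie below them, and the groups of Keap1, G6pdx and Hmox1 overlap.

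The promoters of 4 genes that rose are shown because each holds the core of the antioxidant response element, the DNA motif that NRF2 binds with its small MAF partners. The letters searched were TGACNNNGC, on both strands, in the 250 bases before each start site in RefSeq (GRCm38.p6, matched by symbol). Capitals mark each match. The windows are Gclm at chr3:122245307-122245556 (+), Prdx1 at chr4:116685349-116685598 (+), Gsta3 at chr1:21240335-21240584 (+) and Abcc4 at chr14:118706220-118706469 (-), each printed along the gene's own strand up to the base before its start site.
Gclm: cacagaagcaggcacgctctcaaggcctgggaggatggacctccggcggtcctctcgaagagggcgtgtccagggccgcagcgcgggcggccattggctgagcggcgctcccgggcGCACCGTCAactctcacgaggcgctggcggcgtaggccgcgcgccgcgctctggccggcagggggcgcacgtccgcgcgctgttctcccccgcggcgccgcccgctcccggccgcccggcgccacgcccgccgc
Prdx1: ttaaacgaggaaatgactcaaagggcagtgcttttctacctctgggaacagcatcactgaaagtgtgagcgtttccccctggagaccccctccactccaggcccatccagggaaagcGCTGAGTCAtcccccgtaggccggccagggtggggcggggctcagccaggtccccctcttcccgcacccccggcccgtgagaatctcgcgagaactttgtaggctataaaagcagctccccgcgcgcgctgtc
Gsta3: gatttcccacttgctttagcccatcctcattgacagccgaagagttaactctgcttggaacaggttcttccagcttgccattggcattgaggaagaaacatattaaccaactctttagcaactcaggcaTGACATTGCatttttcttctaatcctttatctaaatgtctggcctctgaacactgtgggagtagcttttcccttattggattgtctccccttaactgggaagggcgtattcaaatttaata
Abcc4: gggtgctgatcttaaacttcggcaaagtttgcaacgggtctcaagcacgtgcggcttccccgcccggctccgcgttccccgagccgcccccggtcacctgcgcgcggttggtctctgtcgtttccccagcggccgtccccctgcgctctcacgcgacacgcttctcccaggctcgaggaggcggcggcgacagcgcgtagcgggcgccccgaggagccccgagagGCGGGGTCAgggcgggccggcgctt
In Gclm the match began 134 bases before the start site, in Prdx1 133, in Gsta3 121, and in Abcc4 25. RefSeq lists another start site of Abcc4 downstream, with a match 23 bases before it, which is not shown. The same core was found in 10.2% of 32851 promoter windows, in 13.6% of the 12788 genes tested that have a window, in 16% of 692 such genes called higher and in 16.4% of 616 called lower. The windows of Slc7a11, Nqo1, Gstm1 and Mt3, which all rose, held no match. That of Nfe2l2, which fell, held a match 240 bases before the start site, which is not shown. A match is a description of these letters and not evidence of binding, and no match says nothing of sites elsewhere.

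Glutathione transferases, which couple glutathione to reactive compounds, rose as a group of 7 of 20 with none lower (median log2 fold change 0.41). Gstm1 measured 7843, 5901, 7185 and 6691 in wild type and 28623, 36650.4, 40112 and 38537 in heterozygotes (5.2-fold, adjusted p = 3.7e-07). Gsta3 went from 69.8, 57.4, 48.5 and 85.4 to 339, 322, 375 and 307 (5.18-fold, adjusted p = 1.9e-07). Gsta1, Gstm4, Gsto1 and Gstp1 rose 5.5-, 3.47-, 2.95- and 1.75-fold, with no overlap between groups. Gsta1, Gstm1, Gstm4 and Gstp1 have close copies in the mouse genome, so their split between copies is uncertain. With the striated muscle level as a covariate 5 transferases were called, and between 7 and 8 were called without single libraries.

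Quinone, carbonyl and aldehyde enzymes followed, with 8 of 21 higher and none lower (median 0.46). Nqo1, which reduces quinones in a single step that avoids radicals, measured 1240.3, 984, 1035 and 1094 in wild type and 3943, 3863, 4244 and 4760.1 in heterozygotes (3.86-fold, adjusted p = 1.3e-07). Cbr1 and Cbr3, carbonyl reductases, rose 2.91- and 2.32-fold (adjusted p = 2.3e-06 and 9.1e-05). Esd, which completes the glutathione-dependent removal of formaldehyde, rose 1.92-fold, and Ptgr1, which reduces reactive alkenals, 2.51-fold. Of 10 aldo-keto reductases 5 rose and none fell, with 2 called with the striated muscle covariate. Among them Akr1b8 measured 350.2, 352, 334 and 235 in wild type and 1299, 809.6, 581 and 987 in heterozygotes (2.8-fold, adjusted p = 0.00053, and 0.09 with that covariate). Akr1c18 and Akr1c19 belong to a family of near-identical genes and are uncertain. Akr1c18 stood at 3.39, 4.64, 6.22 and 7.39 in wild type and 18.3, 41.5, 53.3 and 20.8 in heterozygotes. Akr1c19 stood at 1.35, 0.58, 3.11 and 1.34 in wild type and 6.09, 12.9, 23 and 8.89 in heterozygotes, again apart.

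Efflux pumps that export glutathione conjugates and drugs rose in 7 of 9 genes, with none lower and a median log2 fold change of 0.66. Abcc4 measured 738, 702, 806 and 817 in wild type and 3073, 2890.1, 3134 and 3049.8 in heterozygotes (3.97-fold, adjusted p = 2.2e-08). Abcc1 rose 1.58-fold, from 2509, 2392, 2316 and 2549 to 3979, 3658, 3861 and 3899, and Abcc3 1.71-fold, from 1684, 1291, 1605 and 1250.2 to 2124, 2440.3, 2443 and 2940.3. Abcc2 was scarce, at 0, 2.32, 3.73 and 0.672 in wild type and 8.53, 10.0, 20.6 and 13.3 in heterozygotes (adjusted p = 0.004). Between 6 and 7 of the 9 were called without single libraries, but 3 with the striated muscle covariate.

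Of the enzymes that supply NADPH, the reductant that several of these pathways use, 30% were called, against 9.7% over all genes tested. Of 10 genes 2 were higher and 1 lower (median 0.10), with 1 higher without wild-type library 1 or 3 or heterozygote library 1 or 3. None was lower without wild-type library 1, 2 or 3 or heterozygote library 1 or 2, and 2 were without heterozygote library 3 or 4. Taldo1, of the pentose phosphate pathway, rose 1.44-fold, from 2325, 2151, 2391 and 2106 to 2904, 2986, 3414 and 3608 (adjusted p = 0.0038). G6pdx, the entry enzyme of that pathway, measured 3888, 3388, 3939.6 and 3012 in wild type and 3662, 3609.5, 4104 and 4406 in heterozygotes, which overlapped (log2 fold change 0.15 ± 0.12, adjusted p = 0.44). Hmox1, heme oxygenase and a classic NRF2 target, also overlapped, at 1749.6, 1857, 2288 and 1136 against 1979, 1612, 2345 and 2196 (log2 fold change 0.24 ± 0.25, adjusted p = 0.6). Among 13 heme and iron genes 2 (15.4%) rose and none fell, against 4.8% called higher over all genes tested. Blvrb, biliverdin reductase B, gave a 3.15-fold rise, from 459, 370.4, 443 and 376 to 1221, 1328, 1295 and 1337 (adjusted p = 2e-06). Without wild-type library 1, 1 gene of this list was called.

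Proteasome subunits rose together by small amounts. Of 33 genes 20 were called higher and none lower, at a median log2 fold change of 0.25. Psma5, a subunit of the core ring, measured 601, 606, 618 and 670.1 in wild type and 905, 775, 784 and 829.9 in heterozygotes (1.32-fold, adjusted p = 0.0093). Psma4, of the same ring, went from 868, 849, 960.0 and 874 to 1150.2, 1135, 1099.7 and 1074 (1.26-fold, adjusted p = 0.0089). For both the groups were apart. The count rested on single libraries: it was 5 without wild-type library 1, 7 without library 2, 9 without library 3, and 8 without heterozygote library 1 or 3, and 0 with the striated muscle covariate.

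The other largest rises, among genes averaging at least 50 normalised read counts, were varied in kind. Rxfp3, a receptor for a relaxin-family peptide, went from 0, 1.74, 1.87 and 3.36 to 91.4, 104.6, 138 and 60.8 (39.5-fold, adjusted p = 2.9e-07). Mt3, a metallothionein best known from brain, went from 41.3, 57.4, 66 and 27.6 to 841, 1386, 1056 and 1116 (23.2-fold, adjusted p = 2.2e-08), while none of the other 3 metallothioneins tested was called. Serpina12, the serpin vaspin, measured 13.6, 48.7, 15.6 and 5.38 in wild type and 201, 441, 541 and 320.1 in heterozygotes (21.2-fold). Every heterozygote was above every wild type for these genes, as the rule that chose them required. Akr1d1, a steroid reductase of the aldo-keto family that was not in the list above, rose 17.2-fold (adjusted p = 3.1e-05), the predicted gene Gm37498 13.3-fold (adjusted p = 2.1e-08) and Sec14l4, a lipid-binding protein gene, 10.7-fold (adjusted p = 0.017). The log2 fold change of Sec14l4 was 3.42 with all libraries and 2.32 without wild-type library 1, and its call ended with the striated muscle covariate (adjusted p = 0.41). Slc16a5, a carboxylate transporter gene chosen after its values were seen, had no read in any wild-type library and measured 78, 27.2, 27.9 and 59.3 in heterozygotes, at least 100.9-fold higher against a floor of 3 reads over the wild-type group.

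**Figure D3:**
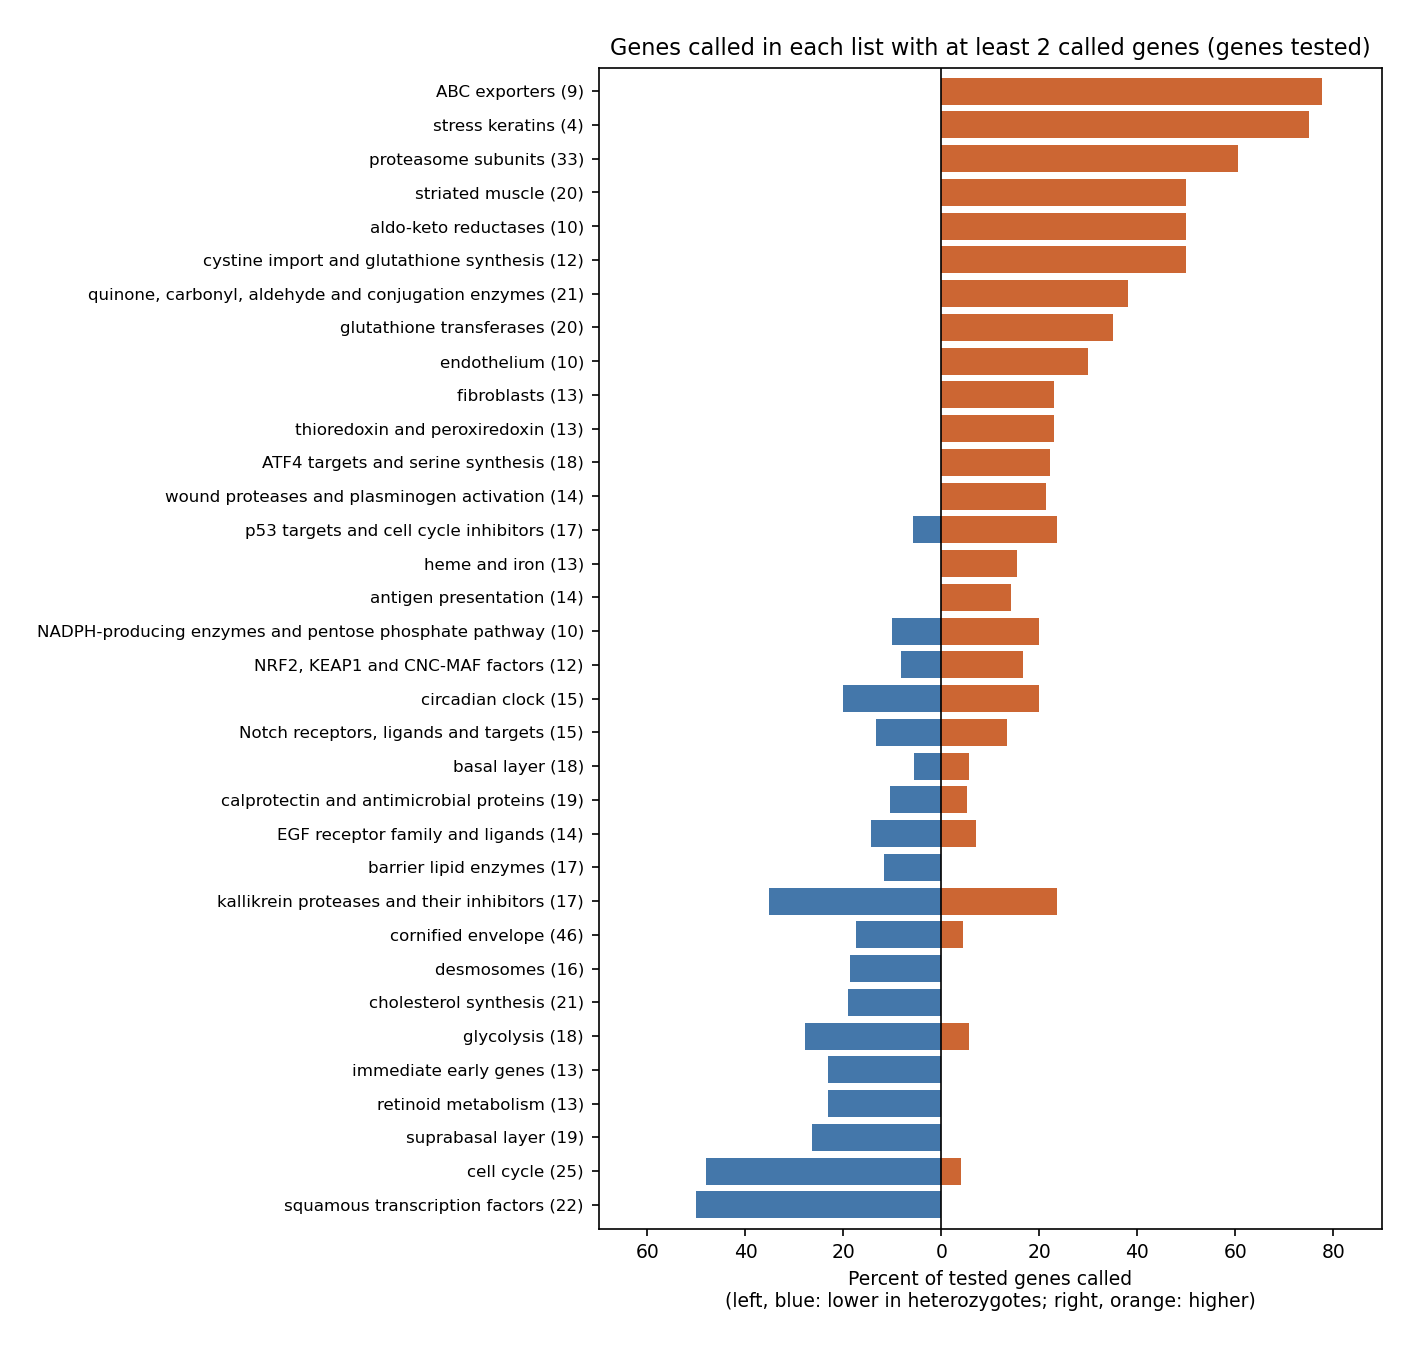
The percent of each gene list called higher (orange, to the right) or lower (blue, to the left) in heterozygotes, for the lists with at least 2 genes called, with the number of genes tested in brackets. ABC exporters (7 of 9 higher), stress keratins (3 of 4) and proteasome subunits (20 of 33) lie at the top, and squamous transcription factors (11 of 22 lower) and cell cycle genes (12 of 25 lower) at the bottom.

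The keratins of stressed epithelium rose by amounts that varied between heterozygotes. Krt16 measured 79.2, 91.6, 101.4 and 216 in wild type and 6919.6, 2182, 2394 and 1907 in heterozygotes (25.4-fold, adjusted p = 1.2e-05). Krt6b went from 530.4, 472, 345 and 1176 to 7524, 21009, 6535 and 12539 (18.9-fold) and Krt6a from 1266, 1258, 1513 and 4445 to 35693, 14370.3, 8038 and 10444 (7.96-fold); these 2 genes are near copies and reads may be split between them. Heterozygote library 1 was the highest for Krt16 and Krt6a, and wild-type library 4 the highest wild type for all 3. With the striated muscle covariate Krt16 and Krt6b were called and Krt6a was not (adjusted p = 0.12). Krt17 did not pass: it measured 49.5, 93.9, 53.5 and 516 in wild type and 2627, 175, 375 and 20.8 in heterozygotes, with a lowest and a highest heterozygote outside the wild-type range on both sides (adjusted p = 0.56). Krt14, the basal partner of Krt5, reached 22943, 14472, 10006 and 7226 in heterozygotes against 9116, 8772, 8839.5 and 9624 in wild type and was not called (adjusted p = 0.34).

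Signals that act on the epithelium changed in a few genes. Epgn, epigen, a ligand of the EGF receptor, measured 8.81, 5.8, 13.7 and 5.38 in wild type and 453, 235, 129.6 and 119 in heterozygotes (22.8-fold, adjusted p = 1.3e-05). Among 14 genes of the receptor family and its ligands it was the single rise. Erbb2, a receptor of that family, fell from 3896, 3291, 3447 and 3306 to 2194, 2002, 2179.9 and 2620.1 (log2 fold change -0.64 ± 0.10, adjusted p = 0.0019). Il1a, the alarmin interleukin-1 alpha, rose 2.15-fold, from 205, 120.0, 144 and 169 to 279, 305, 358 and 425 (adjusted p = 0.0034), the single call among 14 interleukin-1 and interleukin-36 genes. Erbb2 (adjusted p = 0.18) and Il1a (0.081) were not called with the striated muscle covariate, while Epgn was (0.0035). None of 12 neutrophil and epithelial chemokines was called in limma (1 at an unadjusted p under 0.05, 0 with limma-voom). None of 28 leukocyte markers was called either (3 at an unadjusted p under 0.05, 2 with limma-voom), and 24 of them had a positive fold change (median 0.41).

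Transcription factors of the squamous lineage fell as a group: 11 of 22 were called lower and none higher, 21 of 22 had a negative fold change, and the median was -0.42. Pax9, needed for esophageal differentiation, measured 5258, 4157, 4707 and 4109 in wild type and 2502, 2677, 3222 and 3490.1 in heterozygotes (log2 fold change -0.62 ± 0.11, adjusted p = 0.003). Ehf, an epithelial ETS factor, went from 6166, 5765, 5804 and 5363 to 3903, 3433, 4028 and 4615 (-0.54 ± 0.10, adjusted p = 0.0045). Grhl3, which acts in barrier formation, went from 5092, 4404, 5279.9 and 3918 to 2363, 2447, 3239.6 and 3604 (-0.69 ± 0.14, adjusted p = 0.0084). Each of these 3 had groups that did not overlap. Without wild-type library 1 the count was 4, without library 3 and without heterozygote library 2 it was 6, and no call was left with the striated muscle covariate.

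Of 19 suprabasal genes 5 were lower and none higher (median -0.38), and no call was left with the striated muscle covariate. Calml3, a calmodulin-like protein of differentiating keratinocytes, measured 12757, 11014, 13759.9 and 12069 in wild type and 6668, 4425, 7464 and 6605 in heterozygotes (adjusted p = 0.0014). Ecm1, an extracellular matrix protein of the upper epidermis, went from 13087, 11866, 14296 and 7962 to 6625, 4964, 7388 and 6845 (adjusted p = 0.0057). The 2 main keratins of these layers were lower in every heterozygote than in every wild type but were not called: Krt4 measured 647711, 501360.4, 593501 and 436308 in wild type and 349464, 246628, 405962 and 397222 in heterozygotes (adjusted p = 0.33), and Krt13 had an adjusted p of 0.088. Krt10, a keratin of the upper layers of skin, lay the other way, at 240.5, 541, 258 and 221 in wild type and 578, 1913, 1569.5 and 1393 in heterozygotes, without overlap (log2 fold change 2.08 ± 0.62, adjusted p = 0.051). Its partner Krt1 (2.20 ± 0.95, adjusted p = 0.17) and Mal, a membrane protein (1.00 ± 0.55, adjusted p = 0.27), were the other members with a positive fold change, and neither was called. Krt10 was called without heterozygote library 1 (adjusted p = 0.039) and Mal without wild-type library 4 (adjusted p = 0.018). Krt10, Krt1 and Mal were named after their values were seen. The suprabasal count of lower genes was 3 without wild-type library 1 or 3. Of 46 cornified envelope genes, among them families of close copies, 8 were lower and 2 higher, but 0 were lower without wild-type library 1, 1 without library 3 or heterozygote library 2, 3 without heterozygote library 1 and 5 without wild-type library 2.

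Among 17 kallikreins, proteases that shed the surface layer, and inhibitors of such proteases, 6 genes fell and 4 rose. The 6 falls were kallikreins, and the rises were the kallikrein Klk6 and the inhibitors Spink5, Spink7 and Spink12, the last 2 scarce. Klk6 rose 2.23-fold (adjusted p = 0.019), and its call ended without wild-type library 1 (adjusted p = 0.072) or 3 (0.05). Klk6, Spink7 and Spink12 were named after their values were seen. Spink7 measured 0, 0, 0 and 0.672 in wild type and 7.31, 7.17, 6.05 and 26.7 in heterozygotes, and Spink12 1.35, 1.16, 1.87 and 0 and 4.87, 7.17, 7.27 and 19.3. Klk14, a kallikrein that cleaves cell junction proteins, measured 10243, 6987, 9352 and 6559 in wild type and 3084, 2144, 3963 and 3958 in heterozygotes (log2 fold change -1.35 ± 0.21, adjusted p = 0.0018). Klk10, of the same family, measured 10606, 6922, 10934 and 6356 in wild type and 4791, 1749.6, 3901 and 3326 in heterozygotes (adjusted p = 0.009). Spink5, the inhibitor LEKTI that holds kallikreins in check, rose from 13817, 13305, 13461 and 13358 to 17726, 17942, 23232 and 23675 (1.52-fold, adjusted p = 0.0018). The values of Spink5 kept apart by group, with the 4 wild types within 13305 to 13817. The number of falls was 2 without wild-type library 1, 3 without library 3 and 4 without heterozygote library 2 or 4, and with the striated muscle covariate none of the 17 was called. Evpl, envoplakin, which ties the cornified envelope to desmosomes, went from 23195, 21640.3, 22616 and 18934 to 14932, 10439, 14902 and 16209 (adjusted p = 0.009), 1 of 3 falls among 16 desmosome genes. These falls were 18.8% of that list, against 4.9% called lower over all genes tested. The number of desmosome falls was 1 without wild-type library 1, 2 or 3, and Evpl held in each.

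Of 13 retinoic acid handling genes 3 were called lower and none higher, against 4.9% called lower over all genes tested. In the same list 8 had a positive fold change. Crabp2, which carries retinoic acid to its receptor, measured 2334, 1804, 2578 and 1498 in wild type and 1000.3, 428, 815 and 664 in heterozygotes (log2 fold change -1.53 ± 0.23, adjusted p = 0.00096). Rarg, the main retinoic acid receptor of squamous epithelium, went from 3673, 3483, 3579 and 3060.2 to 2214, 2098, 2727 and 2521 (-0.53 ± 0.09, adjusted p = 0.0018). The groups of both were apart, and 3 genes were called without each library in turn. The median of the 13 was 0.24, opposite in sign to the calls. With the striated muscle covariate 1 was called.

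**Figure D4:**
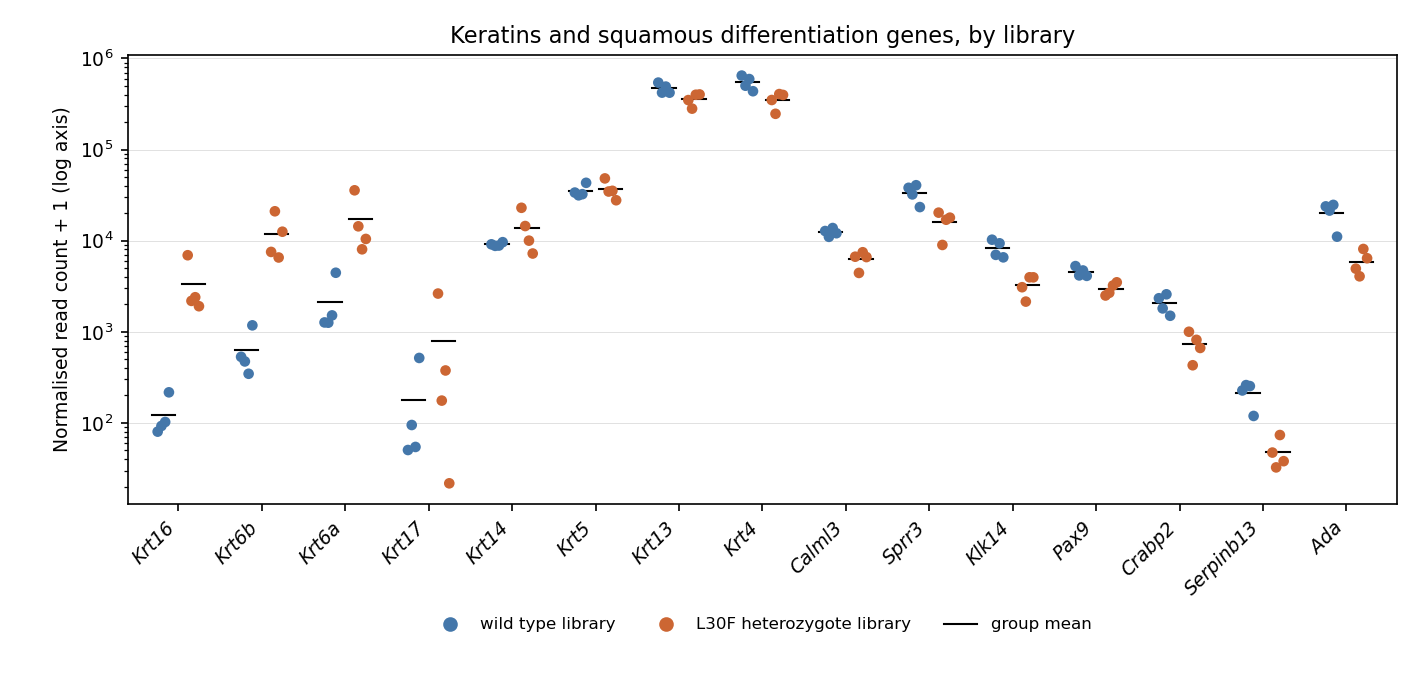
Normalised read count + 1 on a log axis for 6 keratins of basal or stressed cells, Krt13 and Krt4 of the upper layers and 7 genes that fell, with wild-type libraries in blue, heterozygote libraries in orange and a black line at each group's mean. Krt16, Krt6b and Krt6a rise without overlap between groups, Krt17 spreads widely in both, and Calml3, Sprr3, Klk14, Pax9, Crabp2, Serpinb13 and Ada fall without overlap.

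The largest falls, by the same rule of level, included several enzymes and transporters. Bglap2, osteocalcin 2, which has a near copy and is uncertain, measured 364, 351, 412 and 100.1 in wild type and 8.53, 4.3, 7.27 and 0 in heterozygotes (log2 fold change -5.90 ± 0.61, adjusted p = 2.3e-05). Without heterozygote library 4, which had no read, its log2 fold change was -5.18. Wnt16, a Wnt ligand, went from 77.2, 142, 139 and 56.5 to 4.87, 8.6, 8.48 and 28.2 (adjusted p = 0.00084). Serpinb13, a protease inhibitor of squamous cells, went from 226, 259, 253 and 118 to 46.3, 31.5, 72.7 and 37 (adjusted p = 0.0047). In all 3 the groups were apart, as the rule that chose them required. Ndufa4l2, a mitochondrial protein gene known from hypoxia, fell from 1691, 1583, 1633 and 1784 to 424, 448, 368 and 307 (-2.12 ± 0.36, adjusted p = 0.0032). Padi1, which citrullinates structural proteins, measured 1005, 939, 1073 and 559.9 in wild type and 313, 125, 350.0 and 268 in heterozygotes, and Ada, adenosine deaminase, an abundant enzyme of the upper gut, 23783, 21389.7, 24690.5 and 11059 in wild type and 4928, 4061, 8104 and 6413 in heterozygotes (log2 fold change -1.77 ± 0.30, adjusted p = 0.0035). For Bglap2, Serpinb13, Padi1, Ada and Slc6a2, the noradrenaline transporter (-1.79 ± 0.28), wild-type library 4 was the lowest wild type, and each remained called without it. With the striated muscle covariate Bglap2 was called (adjusted p = 0.0016). Under that covariate Wnt16 (adjusted p = 0.088), Serpinb13 (0.062), Ndufa4l2 (0.17), Padi1 (0.095), Ada (0.11) and Slc6a2 (0.17) were not.

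The other 5 of the 12 largest falls were the clock gene Arntl, described with the clock, 3 predicted genes and a pseudogene. Gm43590 measured 241, 198, 226 and 219.8 in wild type, 0, 37.3, 32.7 and 16.3 in heterozygotes and 181, 212, 234 and 237 in homozygotes. Gm47712 measured 234, 160.0, 211 and 194 in wild type, 70.7, 55.9, 56.9 and 38.5 in heterozygotes and 194, 232, 131 and 178 in homozygotes. Gm29562 measured 837, 559.9, 686 and 537 in wild type, 123, 153, 209.5 and 282 in heterozygotes and 805, 522, 518 and 893 in homozygotes. The homozygotes, which carry 2 L30F alleles, lay near wild type for these genes and the heterozygotes alone were low. Without heterozygote library 1, which had no read of Gm43590, the log2 fold change of that gene against wild type was -2.98 in place of -4.18. The difference between heterozygotes and homozygotes was called for each (adjusted p = 0.0043, 4.8e-05 and 0.00035). Against wild type with the striated muscle covariate, Gm47712 was called (adjusted p = 0.001), and Gm43590 (0.31) and Gm29562 (0.097) were not. Idi1-ps1, a pseudogene near-identical to Idi1 and therefore uncertain, had no read in heterozygote libraries 1 and 4. Its log2 fold change was -4.06 with all libraries and from -5.12 to -3.10 without single heterozygotes, and its call ended without any of wild-type libraries 1 to 4 or heterozygote libraries 1 and 4 (adjusted p from 0.054 to 0.11).

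Of 25 cell cycle genes 12 were called lower in heterozygotes and 1 higher (median -0.86), while 10 had a positive fold change and 1 of the 12 had groups that did not overlap. Top2a, the topoisomerase of dividing cells, measured 1961, 1799, 1929 and 871 in wild type and 609, 964, 586 and 837 in heterozygotes (log2 fold change -1.09 ± 0.23, adjusted p = 0.0097). Cdk1, the mitotic kinase, measured 203, 207, 224 and 86 in wild type and 70.7, 126, 73.9 and 88.9 in heterozygotes (adjusted p = 0.03), and its partner Ccnb1, cyclin B1, measured 463, 442, 455 and 131 in wild type and 78, 196, 102.9 and 178 in heterozygotes (adjusted p = 0.035). Cdk1 and Ccnb1 were chosen after their values were seen. Library 4 of the wild type lay inside the heterozygote range for each of the 3 genes. Without it the falls grew, to -1.37 for Top2a, -1.26 for Cdk1 and -1.80 for Ccnb1, and 14 genes were called lower. Without wild-type library 1, 2 or 3, which left 2 high libraries beside library 4, 1, 4 and 3 genes were called lower, and 4 without heterozygote library 1 or 3; without heterozygote library 4, 7 were called higher. The calls of Cdk1 and Ccnb1 ended in all 5 of these fits (adjusted p from 0.075 to 0.12). In the homozygotes Cdk1 measured 293, 202, 229 and 244, above the heterozygotes (adjusted p = 0.0017 for heterozygotes against homozygotes).

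Regulators of cell cycle entry and exit were also among the calls. Ccne1, cyclin E1, which acts before DNA synthesis, measured 33.2, 33.6, 42.9 and 68.5 in wild type and 82.8, 81.7, 79.9 and 62.2 in heterozygotes (1.77-fold, adjusted p = 0.017), the single rise of the list, with wild-type library 4 again inside the heterozygote range; its call ended without wild-type library 1 (adjusted p = 0.071) or 2 (adjusted p = 0.054). Cdkn1c, the cell cycle inhibitor p57, rose from 113, 180.3, 129 and 155 to 416, 473, 288 and 301 (2.53-fold, adjusted p = 0.0022), and Ccng1, a p53 target, from 4714, 5080.5, 5040.2 and 5471 to 8196, 7122, 8718 and 8279.9 (1.59-fold, adjusted p = 0.0015). Both had groups apart, and wild-type library 4 lay with the other wild types. Of 17 p53 targets and inhibitors 4 rose and 1 fell, with 2 rises left without wild-type library 1.

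The circadian clock, a feedback loop in which ARNTL with CLOCK or NPAS2 turns on the Per genes that then repress them, varied among the wild-type libraries as well as between genotypes. Arntl measured 890.0, 846, 765 and 179.5 in wild type and 75.5, 146, 84.8 and 159 in heterozygotes (log2 fold change -2.35 ± 0.50, adjusted p = 0.012). Npas2 measured 679, 664, 737 and 102.8 in wild type and 67, 116, 75.1 and 114 in heterozygotes, and Per2 in the opposite direction 209, 198, 182 and 1391 in wild type and 1842, 1572, 2609.9 and 1113 in heterozygotes (adjusted p = 0.038 and 0.039). Dbp, a clock output gene, measured 184, 227, 138 and 2375 in wild type and 1401, 2232, 2425 and 2279 in heterozygotes and was not called (adjusted p = 0.073). For Npas2, Per2 and Dbp the fourth wild-type library lay inside the heterozygote range and far from the other 3, and without it the log2 fold changes of Npas2 and Per2 went from -2.24 to -2.92 and from 2.41 to 3.11. Of 15 clock genes 3 were called higher and 3 lower with all libraries, and 10 higher and 3 lower without that library. Without wild-type library 1 the calls were 1 higher and 0 lower, and those of Arntl (adjusted p = 0.051), Npas2 (0.12) and Per2 (0.12) ended, as did those of Npas2 and Per2 without wild-type library 2 or 3 or heterozygote library 1, 2 or 3 (adjusted p from 0.058 to 0.11).

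Per1 kept the 4 wild-type libraries together. It measured 1133, 1612, 1526 and 1535 in wild type, library 4 included, and 3284, 2776, 2901 and 2905 in heterozygotes (2.06-fold, adjusted p = 0.00046), and its call held without each library. Ciart, a repressor of the clock, measured 8.13, 11.6, 11.2 and 152 in wild type and 239, 198, 213 and 276 in heterozygotes (10.7-fold, adjusted p = 0.012). Its log2 fold change was 3.42 with all libraries and 4.36 without wild-type library 4, and its call ended without wild-type library 1 (adjusted p = 0.053). Its promoter is shown because the E-box CACGTG, the motif that ARNTL and CLOCK bind, occurred in it 3 times, 116, 58 and 44 bases before the start site, at chr3:95882229-95882478 (-) of RefSeq GRCm38.p6, printed along the gene's strand with the motif in capitals.
Ciart: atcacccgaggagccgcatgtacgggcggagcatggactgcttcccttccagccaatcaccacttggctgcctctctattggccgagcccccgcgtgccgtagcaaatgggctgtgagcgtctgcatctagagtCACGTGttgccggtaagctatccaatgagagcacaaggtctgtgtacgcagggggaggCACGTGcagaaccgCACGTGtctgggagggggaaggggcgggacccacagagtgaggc
The E-box, which reads the same on both strands, was found in 6.02% of 32851 windows and in 8.98% of the 12788 genes tested that have a window. Of such genes, 9.39% of 692 called higher and 7.79% of 616 called lower held it. It was found in 1 of the 2 windows of Per1 and in none of the windows of Arntl, Npas2 and Dbp.

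The part of the clock state in the other calls was not tested directly. As an alternative added after seeing the data, the level of Arntl in each library entered the fit of all 16 adult libraries as a covariate. It left 87 genes called, 69 higher and 18 lower, of which 81 were among the 1927. With the level of striated muscle genes as covariate, 126 genes were called, 90 higher and 36 lower. Both covariates differ between the 2 groups without overlap, so within these 8 libraries their part and that of genotype cannot be told apart. Slc7a11, Gclc, Gclm, Nqo1, Gstm1, Abcc4, Mt3, Krt16 and Krt6b were called under both. Neither fit called any gene of the squamous transcription factor, suprabasal, desmosome, proteasome, NADPH, cell cycle, p53, ATF4, cholesterol, immediate early or clock lists. Arntl belongs to the clock list, so under its own covariate its loss of call was fixed in advance. For clock genes that vary with Arntl, the loss under that covariate is therefore no separate result.

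**Figure D5:**
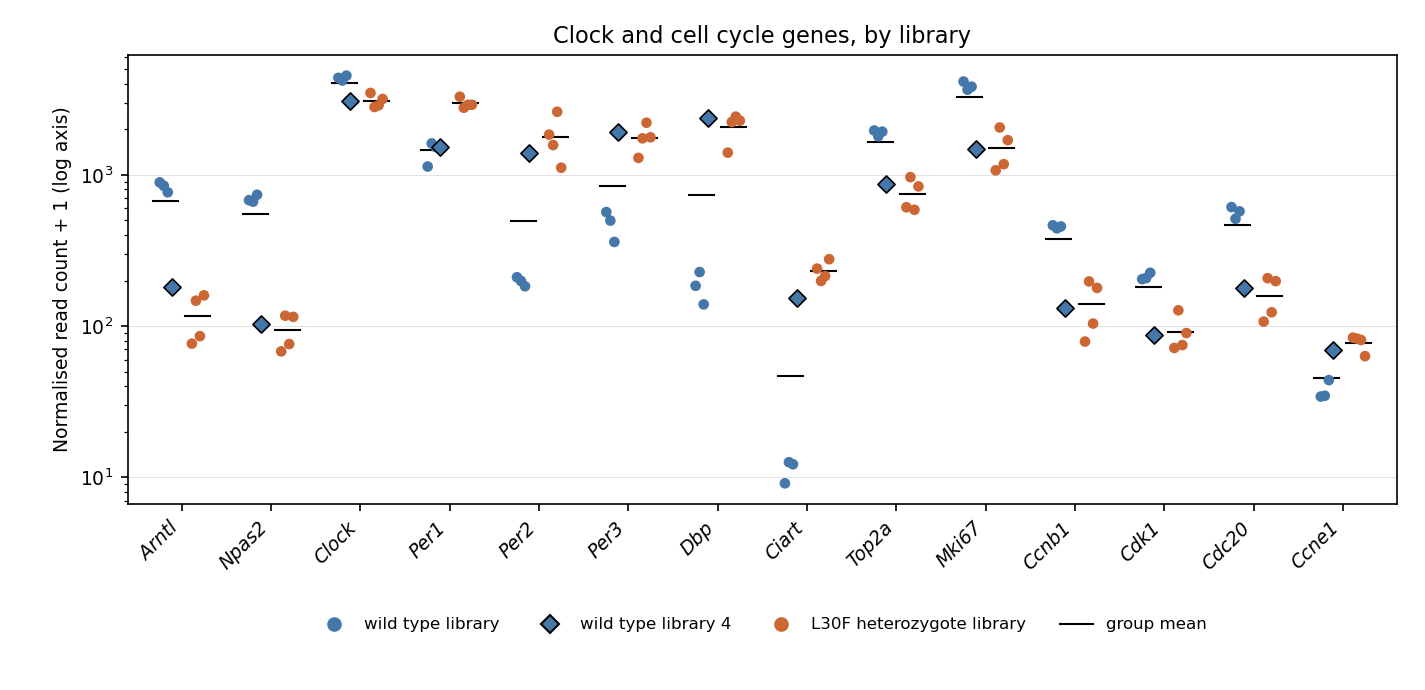
Normalised read count + 1 on a log axis for 8 clock genes and 6 cell cycle genes, with wild-type libraries in blue, library 4 of the wild type as an outlined diamond, heterozygote libraries in orange and a black line at each group's mean. The diamond lies within the range of the orange points for every gene but Per1, where it is with the other wild types, and Arntl and Ciart, where it lies between the groups.

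Some glycolysis genes fell, but the list as a whole did not shift. The median log2 fold change of its 18 genes was -0.01, with 9 positive and 9 negative. Of 18 genes 5 were lower and 1 higher, with 3 lower without wild-type library 1 or 3. Pfkl, a phosphofructokinase, measured 1721, 1451, 1746 and 1459 in wild type and 797, 947, 895 and 883 in heterozygotes (log2 fold change -0.85 ± 0.09, adjusted p = 2.6e-05). Pfkp, another phosphofructokinase, went from 1201, 1125, 1272 and 958 to 635, 701, 540.1 and 629.9 (-0.86 ± 0.11, adjusted p = 3e-04), and Pgam1, a later step, from 4293, 3576, 4046 and 3388 to 2434, 2631, 2323 and 2138 (-0.68 ± 0.09, adjusted p = 4e-04). All 3 had groups apart and held without each library. With the striated muscle covariate Pfkl was called (adjusted p = 0.0086), and Pfkp (0.062) and Pgam1 (0.074) were not. Of 21 cholesterol synthesis genes 4 (19%) were lower and none higher, against 4.9% called lower over all genes tested, and 20 of 21 had a negative fold change. Srebf2, the master regulator of these genes, fell from 5156, 4612, 4629.5 and 4398 to 3992, 3342, 3524 and 3736 (adjusted p = 0.0073). The count of lower cholesterol genes was 1 without wild-type library 1, and 2 without library 2, library 3, or heterozygote library 1 or 2. None of 13 fatty acid synthesis genes was called in limma (2 at an unadjusted p under 0.05, 1 with limma-voom).

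Stress programmes other than the antioxidant one differed in their share of calls. It was 22.2% for ATF4 targets and serine synthesis genes and 23.1% for immediate early genes, against 9.7% over all genes tested. Of 18 ATF4 targets and serine synthesis genes 4 rose and none fell, which became 0 without wild-type library 1 or 3, 1 without wild-type library 2 or heterozygote library 2, and 2 without heterozygote library 1 or 3. Jun, an immediate early factor, fell from 3455, 2961, 3189 and 2654 to 1809, 1836, 2419.7 and 2081 (log2 fold change -0.59 ± 0.11, adjusted p = 0.0056), 1 of 3 falls among 13 such genes. The count of these was 1 without any of wild-type libraries 1 to 3 or heterozygote libraries 2 and 4, and Jun held in each. None of 5 targets of the aryl hydrocarbon receptor, another sensor of foreign compounds, was called in limma (1 at an unadjusted p under 0.05, 0 with limma-voom).

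Genes of other tissues also moved, and in bulk tissue fewer cells of a type and less RNA per cell cannot be told apart. Of 20 striated muscle genes, the muscle of the mouse esophageal wall, 10 rose and none fell (median 0.53). Myl1, a fast myosin light chain, measured 11237, 12789, 12186 and 12138 in wild type and 19971, 19143, 20608 and 19030.1 in heterozygotes (1.63-fold, adjusted p = 0.00049). The count was 4 without wild-type library 1 or heterozygote library 1, and 5 without wild-type library 3 or heterozygote library 3. Of 10 smooth muscle genes none was called in limma (median -0.48, 1 at an unadjusted p under 0.05, 0 with limma-voom). Of 13 fibroblast genes 3 rose, among them Mfap5, a microfibril protein (2.06-fold, from 836, 1001, 886 and 1021 to 2177, 2709.6, 1532 and 1497, adjusted p = 0.0091), and of 10 endothelial genes 3 rose. The endothelial count was 0 without wild-type library 1 and 1 without wild-type library 3 or 4 or heterozygote library 2. Their part in the epithelial results was not tested beyond the covariate fits.

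A few scarce transcripts were higher in heterozygotes. Xist, the RNA of the inactive X chromosome, measured 4.74, 3.48, 3.11 and 8.74 in wild type, 31.7, 38.7, 20.6 and 77.1 in heterozygotes and 6.31, 1.66, 6.11 and 5.23 in homozygotes (adjusted p = 0.0014 against wild type and 0.00069 against homozygotes). Ddx3y, a gene of the Y chromosome, was high in all 8 libraries. It measured 1077, 1023, 1049.6 and 1094 in wild type and 1389, 1171, 1134 and 1243 in heterozygotes. The groups did not overlap, and the gene was not called (adjusted p = 0.19). Sftpc, a surfactant protein of lung, had no read in wild type and measured 23.1, 17.2, 6.05 and 14.8 in heterozygotes, at least 32.1-fold higher against the same floor. In homozygotes it measured 0, 0, 1.53 and 170.9, so homozygote library 4 lay above every heterozygote. The call of Sftpc against wild type ended without any 1 of the 8 libraries (adjusted p from 0.059 to 0.12). Xist and Sftpc were low in all 8 libraries.

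Heterozygotes were finally set against homozygotes to ask where 1 and 2 mutant alleles differ. Of 19857 genes 3249 (16.4%) were called, 1647 higher and 1602 lower in heterozygotes, and 2134 were called without homozygote library 1. List counts in this comparison stand against these numbers over all genes, and not against the shares given for wild type. The glutathione genes were lower in heterozygotes: 6 of 12 were called lower and 1 higher. Slc7a11 measured 37088, 32477, 26627 and 31554 in homozygotes against 19046, 15177, 15968 and 18569 in heterozygotes (log2 difference -0.89 ± 0.12, adjusted p = 0.00024), and Nqo1 6815, 5515, 4833 and 8055 against 3943, 3863, 4244 and 4760.1 (-0.56 ± 0.13, adjusted p = 0.0078). Nfe2l2 was higher in heterozygotes, with 1806, 1618, 1204 and 1199.5 in homozygotes (1.31 ± 0.12, adjusted p = 1.1e-05). The wild-type values of these genes are given above, and the heterozygote groups lie between the other 2 genotypes.

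The stress keratins and some envelope genes were also lower than in homozygotes. Krt6b measured 151532, 146614, 168965 and 80608 in homozygotes and Krt16 28647, 20831, 27812 and 10937, with log2 differences of -3.63 ± 0.38 and -2.84 ± 0.41 for heterozygotes minus homozygotes (adjusted p = 6.4e-05 and 0.00069). Sprr2f and Sprr2e are envelope precursors from a family of close copies and therefore uncertain. Sprr2f measured 6.77, 5.22, 8.71 and 14.1 in wild type, 13.4, 20.1, 18.2 and 10.4 in heterozygotes and 276, 366, 741 and 73.2 in homozygotes. Sprr2e measured 1.35, 5.22, 1.24 and 2.02 in wild type, 2.44, 10.0, 4.84 and 0 in heterozygotes and 149.9, 128, 388 and 29.6 in homozygotes. The heterozygotes overlapped with wild type for both (adjusted p = 0.36 and 0.85) and lay below the homozygotes (adjusted p = 0.00024 and 0.00059). In the other direction, Nox4, an NADPH oxidase, measured 98.7, 269, 139 and 136 in heterozygotes and 0, 0, 33.6 and 19.2 in homozygotes (adjusted p = 0.0055), with 45.4, 80.6, 113 and 78.6 in wild type. Of the squamous transcription factors 3 of 22 were lower and 1 higher in heterozygotes than in homozygotes. That was near the 16.4% called over all genes in this comparison. Of 25 cell cycle genes 20 were lower in heterozygotes and none higher, and of 20 striated muscle genes 9 were higher and none lower.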

How the data were processed

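RNA was measured in bulk esophagus, and 1 deposited table of the adult experiment was used. The authors deposited log2 values, log2(n + 4), as the values themselves show: the lowest is 2, and n is the whole reads of a gene divided by a number for each library. For that scaling and any gene filter the method is not given in the sources used here. Salmon and GRCm39 are named in the submitters' processing notes. The values were turned back to n, called the normalised read count, and to reads. In each library 100% of values up to 1000 reads, to 2 decimals, were within 0.1 of a whole read.

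Genes with n of at least 1 in at least 4 of 16 adult libraries were tested (19857 of 19942) with limma 3.58.1 in R 4.3.3, on log2(n + 1) with trend and robust settings and all 4 groups in 1 fit. This scale understates the change of scarce genes. Fold changes (heterozygotes over wild type) come from it, values with ± carry the SE, and p-values were adjusted by Benjamini and Hochberg over all genes tested. The fit was tested on simulated data. Members, gene lists and tests were chosen with earlier results of these data known, so no list is independent evidence of its direction. The genes named are Nfe2l2, Keap1, Nqo1 and Slc7a11, the 12 largest rises and 12 largest falls without overlap and with a mean of at least 50, up to 6 called members of each list, and members not called, given with their values. For heterozygotes against homozygotes 5 genes each way could be named. Alternatives were TMM scaling, limma-voom on recovered reads, equal depth, pseudocounts of 0.1 and 4, other filters and fits, covariates, the replicate number as a block, and fits that omit 1 library each. The pup experiment was normalised separately and was not used here.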

Additional observations from a re-analysis of the deposited data

Results flagged for a closer look

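In 216 groups of 4 libraries (108 named genes, wild type and heterozygotes), 22 had 1 library far from the other 3, by Dixon's 95% limit on the gap to the nearest. For independent, normally distributed values about 1 in 20 groups pass this limit. These are read counts of genes that vary together, and some genes were named after their values were seen. The 22 can therefore not be set against that rate. Wild-type library 4 was the one apart in 13 of the 22. It was high for the membrane protein gene Mal (533.7), for the keratin genes Krt16 (215.7 normalised read counts), Krt6a (4445) and Krt17 (515.5), for the clock genes Ciart (151.9), Per2 (1391) and Dbp (2375), and for the protease inhibitor gene Spink7 (0.672, against no read in the other 3). It was low for the clock gene Npas2 (102.8), the cell cycle genes Top2a (871.1), Ccnb1 (131.1) and Cdk1 (86.03) and the aldo-keto reductase gene Akr1b8 (235.2). Wild-type library 2 was low for Prdx1, at 3145 against 3273 to 3287 in the others, a gap small beside the level. It was high for the keratin genes Krt10 (541.4) and Krt1 (1728). Heterozygote library 1 was high for Krt16 (6919.6) and Krt17 (2627). Heterozygote library 4 was high for Wnt16 (28.16), Spink7 (26.68) and Spink12 (19.27) and low for Ccne1 (62.24).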

How the results depend on the processing

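Of 1927 genes called (954 higher, 973 lower), the number stayed within 1.5 times under TMM scaling (1885), limma-voom (2124), equal depth (1633), both other pseudocounts and filters, and without trend and robust settings (1479). With only the groups compared in the fit it was 809 (446 higher, 363 lower), with a 2-fold minimum 457 (252 and 205), with the striated muscle covariate 126 (90 and 36) and with the Ddx3y covariate 653 (332 and 321). With the Arntl covariate, chosen after seeing the data, it was 87 (69 and 18). The level of Ddx3y, like the other covariates, did not overlap between the 2 groups. Its part and that of genotype therefore cannot be told apart within these libraries. The share of calls that were higher was 49.5%, and 71.4% and 79.3% with the muscle and Arntl covariates. Leaving out 1 library gave 624 to 2455 calls, 324 to 1160 higher and 300 to 1295 lower. Heterozygotes against homozygotes gave 3249 calls, and 1544, 907, 1756, 1200 and 1847 in the same 5 settings, with 2134 to 3314 when 1 library was left out. A fold minimum can only lower the count, and the cause of the other changes was not tested. Of 91 named genes called, 38 were still called with the muscle covariate and 33 with the Arntl covariate. The log2 fold change turned under the Arntl covariate for Ccnb1 (0.18), Npas2 (0.56) and Per2 (-0.50), and that of Arntl was 0 by construction. The replicate block gave 1767 calls. Same-numbered libraries of the 2 groups had correlations of deviations of -0.013, 0.118, -0.063 and -0.17, and 1 heterozygote of 4 correlated best with its own number. With 4 libraries in each group these correlations cannot exclude a pairing by number. The lower depth of the heterozygotes limits scarce genes.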
